A study of Homo sapiens with 4 samples.

Results

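The mitochondrial ribosomal proteins are the genes whose symbol begins with MRPL or MRPS followed by a digit, and 76 of the 19192 genes counted in all 4 libraries were found by that rule. The symbols assign 48 of them to the large subunit (MRPL) and 28 to the small subunit (MRPS). All were counted in ribosome footprints and in matched RNA fragments from 2 lines made from SW480 cells, a colorectal adenocarcinoma culture of human origin in long use. In the first, LIN28B was labelled as overexpressed (OE); LIN28B binds precursors of the let-7 microRNAs and stops their maturation. In the second, the label adds to this overexpression a knockout of both copies of IMP1, the mRNA-binding protein that IGF2BP1 encodes. LIN28B overexpression was therefore labelled in both lines, and parental SW480 cells were not analysed here. Each line gave 1 RNA library and 1 footprint library from 3 pooled culture plates, and the labels do not say how many clones a line came from. The question put to these genes is whether their mRNA level or their loading with ribosomes differs between the lines.

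The labels went against the targeted gene. IGF2BP1 RNA had 840 counts in the OE-labelled and 1974 in the knockout-labelled library (log2 ratio 0.79), and its footprints had 332 and 821 counts (1.03). LIN28B was lower in the knockout-labelled libraries, with RNA counts of 1205 and 303 (log2 ratio -2.43). The cell line field of the OE-labelled RNA library reads SW840, whereas its source field reads SW480. The groups are therefore called OE-labelled and knockout-labelled, and no direction below is assigned to loss of IMP1. Of 8 colorectal epithelial markers, 6 were above the count minimum, KRT20 and CDX1 were at 0, and the summed RNA count of the 8 was 51379 in the OE-labelled and 32788 in the knockout-labelled library. Of 7 markers of other cell types only CD68 was above it, PTPRC was at 0, and the summed RNA counts were 88 and 272. Their part in the results was not tested. Library totals were 5429224 and 6813372 RNA counts and 2732760 and 3260262 footprint counts, OE-labelled first.

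Mitochondria keep a ribosome of their own, which translates the few mRNAs of the mitochondrial genome into membrane subunits of the respiratory chain and the ATP synthase. Its RNAs come from mitochondrial DNA, but all of its proteins are encoded in the nucleus, translated by cytosolic ribosomes and imported. Part of these proteins descend from bacterial ones (named uL, bL, uS or bS with a final m), and many others were added in mitochondria (named mL or mS). The footprints counted on MRPL and MRPS mRNAs are those of cytosolic ribosomes making these proteins. Most mRNAs of the cytosolic ribosomal proteins start with a C followed by a run of pyrimidines, the 5' terminal oligopyrimidine (TOP) motif, through which their translation is controlled together.

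The start sites of the members and of the cytosolic ribosomal protein genes differed in this motif. RefSeq promoters (GRCh38.p14, 250 bases before to 50 after the start) were matched for 68 of the 76 members and for 63 of 79 cytosolic ribosomal protein genes. A C at the first base followed by 4 bases that are each C or T was present in 4 of the 68 members (5.88%), against 43 of the 63 cytosolic genes (68.3%) and 4.60% of 15843 protein-coding promoters. The sequences below are the 10 bases before each annotated start, the first 5 transcribed bases in capitals and the next 10 bases. They show the members with the lowest footprint ratios (MRPS6, MRPS21, MRPL39), members with some of the highest efficiency or footprint ratios (MRPL17, MRPS25, MRPL33), a member with the motif (MRPS27), and 3 cytosolic genes with it.
MRPS6 (chr21:34073568-34073592, plus strand): ctcggaccgtGCTTTcgccgcctgg
MRPS21 (chr1:150293851-150293875, plus strand): ttccggtagtGAGAAcccttccggt
MRPL39 (chr21:25607467-25607491, minus strand): ggttctcaccGCTGCtatggaggcg
MRPL17 (chr11:6683326-6683350, minus strand): tctaccttccAGTTTccagttccgg
MRPS25 (chr3:15065301-15065325, minus strand): gtgcgtctgcGCGGGaagtggaacc
MRPL33 (chr2:27771709-27771733, plus strand): ccccggaagcAGTTGttgttggttg
MRPS27 (chr5:72320226-72320250, minus strand): gttggctgttCCTTTtggtacgctc
RPS6 (chr9:19380222-19380246, minus strand): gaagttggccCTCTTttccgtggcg
RPLP0 (chr12:120201097-120201121, minus strand): ggcgcgaggcCCTTCtctcgccagg
RPL13A (chr19:49487598-49487622, plus strand): aaacctcctcCTTTTccaagcggct

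A pair of other promoter words was found in a larger share of the members than of all promoters. AAGATGGC, the core of the YY1 motif, was found on either strand in 20 of 68 members (29.4%), against 11.1% of cytosolic ribosomal protein genes, 3.91% of all promoters and 6.15% of the promoters of genes measured in RNA. In 15 of the 20 it lay after the start, 6 to 35 bases into the transcript. CCGGAAG, the core of the ETS-family motif, was found in 27 members (39.7%), against 33.3%, 14.2% and 21.3%, and in 21 of the 27 it lay within 100 bases before the start. The motif of NRF1, a factor of mitochondrial biogenesis, was found in 10.3% of members, 8.58% of all promoters and 13.0% of those of measured genes, and GGGCGG, the SP1 motif, in 60.3%, 58.5% and 73.3%. Both strands were searched for each motif, none of which contains another, and a match describes the sequence only. Examples with the motif in capitals and 8 bases either side are shown for members described below.
MRPL46, YY1 (chr15:88467365-88467388, minus strand): gagaacgaAAGATGGCggcgcccg
MRPL50, YY1 (chr9:101398580-101398603, minus strand): tctcatcgAAGATGGCggcgcgat
MRPL40, ETS (chr22:19432526-19432548, plus strand): gcgcacgcCCGGAAGcggcgagg
MRPL33, ETS (chr2:27771703-27771725, plus strand): gccgtgccCCGGAAGcagttgtt
MRPS21, ETS (chr1:150293842-150293864, plus strand): aatttccgCTTCCGGtagtgaga
MRPL17, NRF1 (chr11:6683404-6683429, minus strand): gctctgatGCGCATGCGCaaacacgt

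As a group, the members hardly differed between the lines in mRNA, and their footprints were slightly higher in the knockout-labelled line, with single proteins standing far to either side. Every ratio below is a log2 ratio that is positive where the knockout-labelled library is higher, after scaling within the assay and with 0.5 added to each count. The 95% intervals cover counting error only: with 1 library per line and assay there is no replicate check, no p-value was computed, and a difference between lines cannot be told apart from one between these libraries. In such bulk libraries fewer cells of a type and less RNA per cell also cannot be told apart. Dividing a gene's footprint ratio by its mRNA ratio gives its efficiency ratio. A gene counted as measured where the 2 libraries of an assay averaged 50 counts or more, which all 76 members reached in RNA and 75 in footprints. A gene below 50 in 1 library could pass through the other, as MRPL33 (45 and 121 footprints) and MRPS25 (41 and 121) did. MRPS36 fell just short, with 22 and 59 footprints, and MRPL1 lay just inside, with 59 and 66. MRPS36 is now named KGD4 in RefSeq, as a component of the alpha-ketoglutarate dehydrogenase complex.

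The median mRNA ratio of the 76 members was -0.0014, against 0.01 for all 9855 measured genes. At 1.5-fold or more, 5 members were higher and 4 lower, where 10.5% of all measured genes were higher and 10.5% lower. The median footprint ratio of 75 members was 0.12, against 0.02 for 7323 genes, with 11 members at least 1.5-fold higher and 6 lower (background 15.0% and 14.1%). Their median efficiency ratio was 0.09, against -0.0048 for 7260 genes, with 10 higher and 5 lower (background 13.4% and 12.9%). The higher calls in footprints and efficiency were thus near the share of all genes. At 2-fold, 1 member was higher and 1 lower in mRNA (background 2.99% and 3.49%), 3 and 3 in footprints (4.66% and 4.44%) and 3 and 2 in efficiency (3.65% and 3.6%). With library totals in place of the trimmed-mean factors, the mRNA median of all genes moved from 0.01 to 0.13, the members' mRNA median to 0.12 with 10 higher and 2 lower, and their efficiency median to -0.0017. Summed over members, RNA was 0.399% of the OE-labelled and 0.432% of the knockout-labelled library (log2 ratio -0.0002 after scaling, 95% interval -0.03 to 0.03), and footprints were 0.683% and 0.746% (0.10, 0.08 to 0.13).

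The medians of the cytosolic ribosome differed from these in each measure. The 79 cytosolic ribosomal proteins had a median mRNA ratio of -0.30, with 0 higher and 12 lower (15.2%) at 1.5-fold. Their median footprint ratio was 0.34, with 12 higher (15.2%) and 0 lower. Of all measured genes, 10.5% were higher and 10.5% lower in mRNA, and 15.0% higher and 14.1% lower in footprints. The higher calls in footprints were thus near the share of all genes. The median efficiency ratio of the cytosolic proteins was 0.68, with 42 of 79 (53.2%) at least 1.5-fold higher and 0 lower. Of all measured genes 13.4% were higher and 12.9% lower in efficiency. The directions of the cytosolic proteins held under each of the 4 scalings tried. The median of the members therefore lay 0.30 above that of the cytosolic proteins in mRNA, 0.21 below it in footprints and 0.58 below it in efficiency. The spread over genes also differed: the SD of the efficiency ratio was 0.50 over the members, 0.33 over the cytosolic proteins and 0.56 over all measured genes. RPS6, for example, had 7600 and 8681 RNA counts and 2843 and 4320 footprints, OE-labelled first, an efficiency ratio of 0.58. RPL13A had 8522 and 7836 RNA counts with 3346 and 5200 footprints, an efficiency ratio of 0.93. Members have far fewer counts than these, between 51 and 974 RNA counts and 22 and 943 footprints in the OE-labelled libraries, so their single ratios carry wider counting error.

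**Figure D1:**
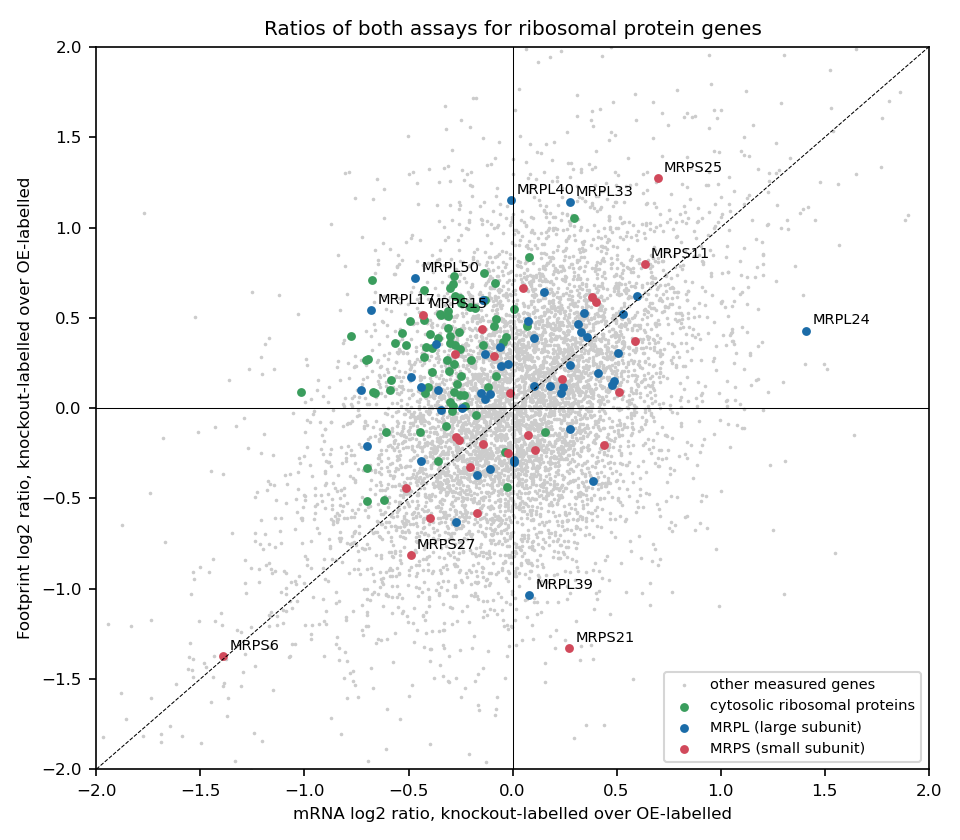
Each point is a gene, with its mRNA log2 ratio on the horizontal and its footprint log2 ratio on the vertical axis, knockout-labelled over OE-labelled; the dashed line marks equal ratios and axes end at 2 to either side, so genes beyond are not drawn. Cytosolic ribosomal proteins (green) lie mostly above the line and left of 0, while the large (blue) and small (red) mitoribosomal proteins lie on both sides of it; with total counts the mRNA median of all genes moves from 0.01 to 0.13.

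**Figure D2:**
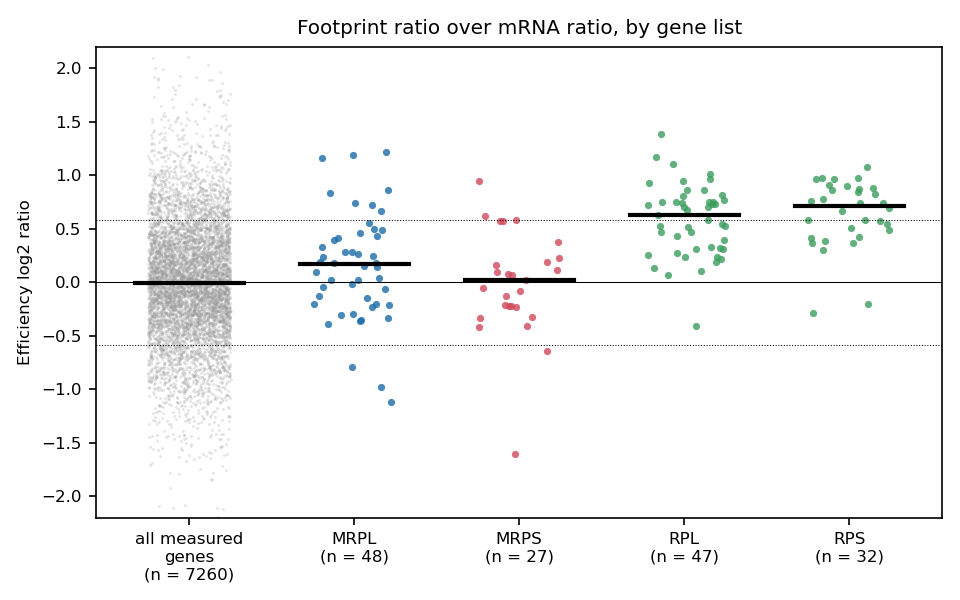
Efficiency log2 ratio of each measured gene by list, with the median as a black bar and dotted lines at 1.5-fold. The medians were 0.17 for MRPL, 0.02 for MRPS (below 0 with total counts), 0.63 for cytosolic large (RPL) and 0.72 for cytosolic small (RPS) subunit proteins; genes beyond 2.2 are not drawn.

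The TOP motif at the annotated first base split the cytosolic list little. The 43 genes with it had a median efficiency ratio of 0.68 and the 20 without it 0.62. This split depends on the annotated start, and 51 of the 63 genes (81.0%) had such a run near it. RPL6 and RPS29, counted as without it, have RefSeq starts offset by -1846 and -12334 bases from their listed transcripts. The split therefore cannot cleanly separate mRNAs with and without the motif. Outside both ribosomes, 327 measured genes with the motif stood at 0.05 and 5518 without it at -0.02. The 4 members with it, MRPL44, MRPL45, MRPL53 and MRPS27, had a median of -0.26, and their own values ran from -0.36 (MRPL53) to 0.43 (MRPL45). Members with the YY1 word had a median efficiency ratio of 0.13 (20 genes) and those without it 0.09 (47 genes), and for the ETS word these were 0.19 (27) and 0.03 (40). These splits describe the lists and were not tested.

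Coding length differed between lists as well and moved with efficiency across all genes. The median coding sequence was 588 nt in the members, 453 nt in the cytosolic proteins and 1371 nt in all measured genes. The median efficiency ratio of all measured genes was 0.14 between 300 and 600 nt, 0.09 between 600 and 900 nt and -0.08 above 1200 nt. The members' 0.09 lay near the value of genes of their length, and the cytosolic proteins' 0.68 above it. In footprints the medians of all measured genes in the same length ranges were 0.10, 0.11 and -0.03. The members' footprint median of 0.12 thus also lay near that of genes of their length. The part of coding length in these ratios was not tested.

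The medians of the subunits differed by 0.03 in mRNA and by 0.31 in footprints, and by 0.18 and 0.21 from summed counts. The median mRNA ratio was 0.01 over the 48 large subunit genes, with 2 higher and 3 lower at 1.5-fold, and -0.02 over the 28 small subunit genes, with 3 higher and 1 lower; both medians were above 0 with total counts (0.12 and 0.10) and below 0 with upper-quartile scaling. The median footprint ratio was 0.16 over the large subunit, where 36 of 48 ratios were above 0, and -0.15 over 27 small subunit genes, where 13 were above and 14 below 0. At 1.5-fold, 6 large subunit genes were higher and 2 lower in footprints, and 5 small subunit genes were higher and 4 lower. Of 7323 genes, 3775 had footprint ratios above 0, and 15.0% were higher and 14.1% lower at 1.5-fold. The small subunit's 18.5% and 14.8% lay near these shares. The shares of all genes were 10.5% each in mRNA, and 13.4% higher and 12.9% lower in efficiency. The median efficiency ratios were 0.17 (8 higher, 3 lower of 48) and 0.02 (2 higher, 2 lower of 27), the second of which was -0.08 with total counts. The difference of 0.31 between the subunits' footprint medians was 0.21 without the chromosome 21 members. Both subunits spanned a wide range, and the spread within each (SD 0.40 in large, 0.62 in small subunit footprint ratios) exceeded the distance between their medians.

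Structures of the human mitoribosome place the products of MRPS30 (mL65) and MRPS18A (mL66) in the large subunit despite their symbols. MRPS30 had 270 and 319 RNA counts and 340 and 328 footprints, OE-labelled first, with ratios of -0.20 and -0.33. MRPS18A had 161 and 286 RNA counts and 119 and 221 footprints, with ratios of 0.38 and 0.61. Of the other proteins derived from bacterial S18, MRPS18B (mS40) had 497 and 514 RNA counts and 648 and 514 footprints, ratios of -0.40 and -0.61, and MRPS18C (bS18m) had 51 and 75 RNA counts and 91 and 94 footprints, ratios of 0.11 and -0.23. The 3 relatives thus lay on both sides of 0, with MRPS18A higher and MRPS18B lower in footprints by over 1.5-fold. The 46 members classed as having a bacterial counterpart had median mRNA, footprint and efficiency ratios of 0.10, 0.15 and 0.08. The 29 classed as specific to mitochondria had -0.13, 0.10 and 0.11. Classes follow the unified names, so MRPS18A and MRPS18B count among the 29 despite their relation to bacterial S18.

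The large subunit members described next were chosen for their high or low ratios. MRPL24 (uL24m, which in bacteria starts assembly of the subunit; chr1:156737305-156741131) had the highest mRNA ratio of all members. Its RNA counts were 104 in the OE-labelled and 378 in the knockout-labelled library and its footprints 182 and 297. The mRNA ratio was 1.41 (95% interval 1.1003 to 1.74) and the footprint ratio 0.43 (0.16 to 0.70), so the efficiency ratio was -0.98 (-1.39 to -0.57). Both assays were higher in the knockout-labelled line, RNA by more than footprints.

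MRPL17 (bL17m, a protein near the tunnel exit; chr11:6680782-6683401) showed the opposite arrangement. It had 381 and 324 RNA counts and 244 and 431 footprints. Its mRNA ratio was -0.68 (-0.90 to -0.46), its footprint ratio 0.54 (0.31 to 0.78) and its efficiency ratio 1.22 (0.91 to 1.53), the highest of the members. MRPL27 (bL27m, whose tail reaches the catalytic centre in bacteria) and MRPL23 (uL23m, at the tunnel exit) were also lower in mRNA, with ratios of -0.73 and -0.70. MRPL27 footprints were 103 and 134, a ratio of 0.10, and its efficiency ratio was 0.83.

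MRPL3 (uL3m, which reaches toward the catalytic centre) was the member with the most counts, 974 and 1760 in RNA and 943 and 1305 in footprints. Its mRNA ratio of 0.41 (0.30 to 0.52) and footprint ratio of 0.19 (0.07 to 0.31) were both below 1.5-fold. MRPL12 (bL12m, the flexible stalk protein that recruits translation factors) had 255 and 317 RNA counts and 179 and 225 footprints, ratios of -0.13 and 0.05 whose intervals include 0. MRPL14 (uL14m) was higher in both assays, from 122 to 252 RNA counts (0.60) and from 54 to 101 footprints (0.62). MRPL19 (bL19m) had 293 and 362 RNA counts and 229 and 420 footprints, and thus differed in footprints (0.60, 0.36 to 0.84) and not beyond counting error in mRNA (-0.14, -0.37 to 0.09). MRPL34 had an efficiency ratio of -0.79 (-1.23 to -0.35), with 168 and 154 footprints on 135 and 241 RNA counts.

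The highest footprint ratios of the large subunit were those of MRPL40, MRPL33 and MRPL50, none of which had an mRNA ratio of 1.5-fold. MRPL40 (mL40, added in mitochondria; chr22:19431902-19436075) had 150 and 203 RNA counts and 105 and 283 footprints. After scaling its mRNA ratio was -0.01 (-0.32 to 0.31) and its footprint ratio 1.15 (0.83 to 1.49), an efficiency ratio of 1.16 (0.72 to 1.60). MRPL33 (bL33m, near the tRNA exit site) had 100 and 165 RNA counts with 45 and 121 footprints, a footprint ratio of 1.14 (0.65 to 1.68). MRPL50 (mL50) had 248 and 244 RNA counts with 73 and 146 footprints, an mRNA ratio of -0.47, a footprint ratio of 0.72 and an efficiency ratio of 1.19 (0.71 to 1.66). All 3 had more than 1.5-fold more footprints per RNA in the knockout-labelled line.

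MRPL39 (mL39, which has the fold of a threonyl-tRNA synthetase; chr21:25585656-25607517) had the lowest footprint ratio of the large subunit. Its RNA counts were 193 and 278 and its footprints 236 and 139. The mRNA ratio was 0.08 (-0.19 to 0.35), the footprint ratio -1.04 (-1.35 to -0.73) and the efficiency ratio -1.12 (-1.52 to -0.72). Footprints were lower in the knockout-labelled library while RNA did not differ beyond counting error. MRPL53 was the other large subunit gene at least 1.5-fold lower in footprints (110 and 86, ratio -0.63), and MRPL37, among the highest in mRNA (0.48), had a footprint ratio of 0.13.

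**Figure D3:**
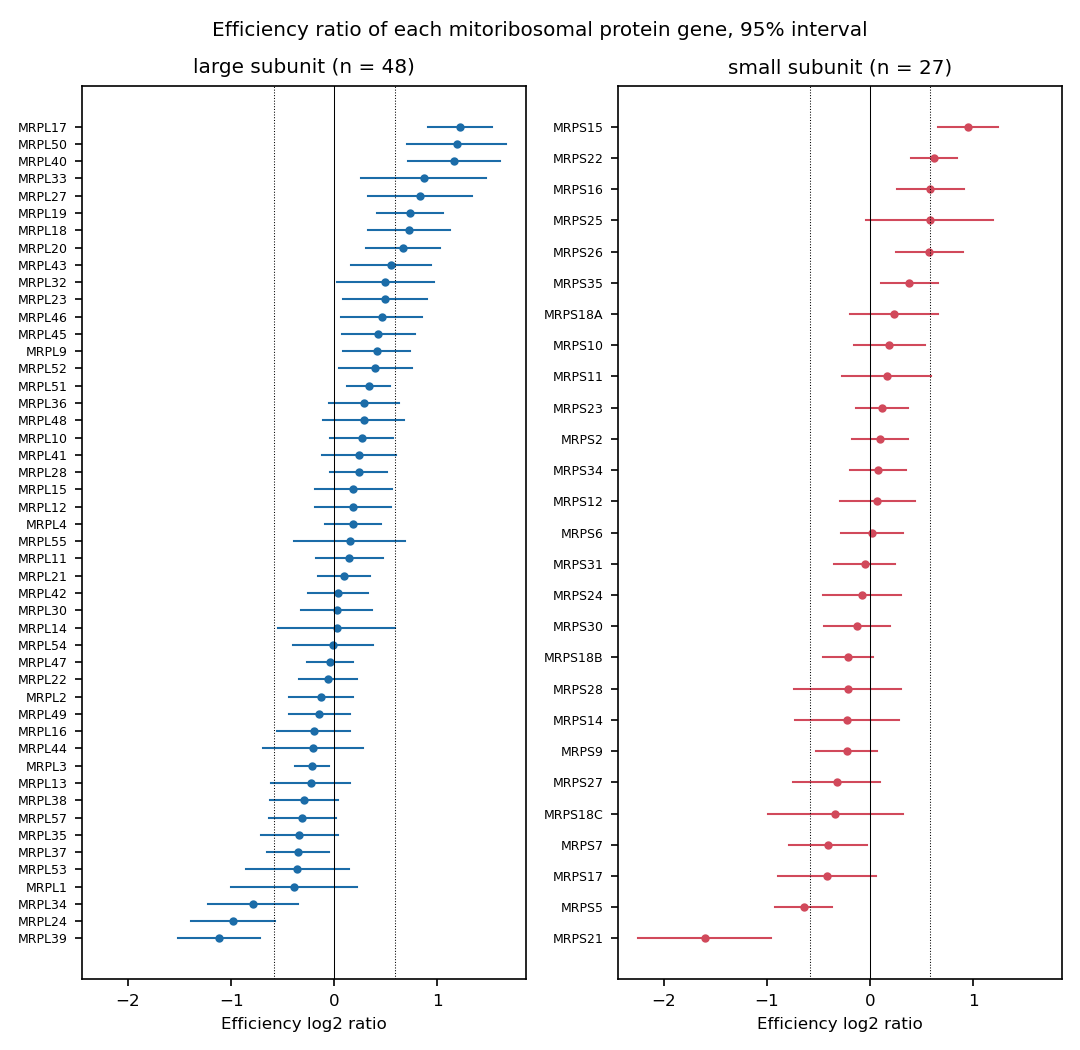
Efficiency log2 ratio (horizontal axis) of each of the 75 measured members in its subunit, sorted by value, with the 95% interval from the 4 counts as a line and 1.5-fold as dotted lines. MRPL17, MRPL50 and MRPL40 are highest and MRPL39 and MRPL24 lowest in the large subunit, and MRPS15 is highest and MRPS21 lowest in the small subunit. Of the 75 intervals 29 leave out 0, and the share over all genes was not counted.

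In the small subunit the lowest member was MRPS6 (bS6m, a protein of the platform; chr21:34073523-34143034). It had 702 RNA counts in the OE-labelled and 364 in the knockout-labelled library, and 450 and 210 footprints. Its mRNA ratio was -1.39 (-1.58 to -1.21) and its footprint ratio -1.37 (-1.62 to -1.14), so that the efficiency ratio was 0.02 (-0.28 to 0.32). Both assays were lower, by ratios that differed by less than their counting error. The annotated gene overlaps SLC5A3 on the same strand, which was not analysed here, and reads of an overlap cannot be assigned to either gene.

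MRPS21 (bS21m, also of the platform; chr1:150293920-150308979) was as low in footprints but not in mRNA. It had 60 and 99 RNA counts and 121 and 58 footprints. Its mRNA ratio was 0.27 (-0.20 to 0.77), its footprint ratio -1.33 (-1.81 to -0.87) and its efficiency ratio -1.60 (-2.25 to -0.96), the lowest of the members. The gene has 8 named pseudogenes in the annotation, more than any other member, and how reads of these copies were assigned is not known. MRPS5 (uS5m, at the mRNA entry) had an efficiency ratio of -0.64, with 391 and 722 RNA counts and 347 and 365 footprints.

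MRPS25, MRPS11 and MRPS22 led the higher small subunit genes. MRPS25 (mS25; chr3:15048518-15065335) had 99 and 219 RNA counts and 41 and 121 footprints, an mRNA ratio of 0.70 (0.35 to 1.06) and a footprint ratio of 1.27 (0.76 to 1.83). MRPS11 (uS11m, near the mRNA exit) had 109 and 231 RNA counts and 148 and 312 footprints, ratios of 0.64 and 0.80. MRPS22 (mS22) had 508 and 715 RNA counts and 533 and 1025 footprints, with a footprint ratio of 0.67 (0.51 to 0.82) beside an mRNA ratio of 0.05. MRPS25 and MRPS11 were higher in both assays, MRPS22 in footprints only.

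MRPS15 (uS15m, an early binder of the rRNA; 443 and 447 RNA counts, 253 and 439 footprints) had an mRNA ratio of -0.43, a footprint ratio of 0.52 and the highest efficiency ratio of the small subunit, 0.95 (0.66 to 1.24). MRPS27 (mS27, a pentatricopeptide-repeat protein) had 224 and 217 RNA counts and 182 and 125 footprints, ratios of -0.49 and -0.82. MRPS12 (uS12m, at the decoding centre) stood at -0.51 in mRNA and -0.44 in footprints, and MRPS7 (uS7m, of the head) at -0.17 and -0.58. All 3 had ratios below 0 in both assays, though only MRPS27 reached 1.5-fold in footprints and the mRNA interval of MRPS7 (-0.43 to 0.09) includes 0.

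The ratios of the assays were only loosely related across members. At 1.5-fold, 3 of 75 members were higher in both assays (MRPL14, MRPS11 and MRPS25), 1 was lower in both (MRPS6) and 0 went opposite ways. Of 7260 genes, 274 were higher and 297 lower in both assays, so the 3 members lay near the share of all genes. Genes that went opposite ways were not counted over all genes, so the 0 has no share beside it. Across the 75 members Pearson's r between the mRNA and the footprint ratio was 0.40 and Spearman's rho 0.39, and r was 0.51 across 7260 genes. The members share 4 libraries and are not replicates, so these are descriptions. Intervals left out 0 for 40 of 76 mRNA and 50 of 76 footprint ratios, with MRPS36, below the count minimum, among the 76. The share over all genes was not counted for these intervals.

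**Figure D4:**
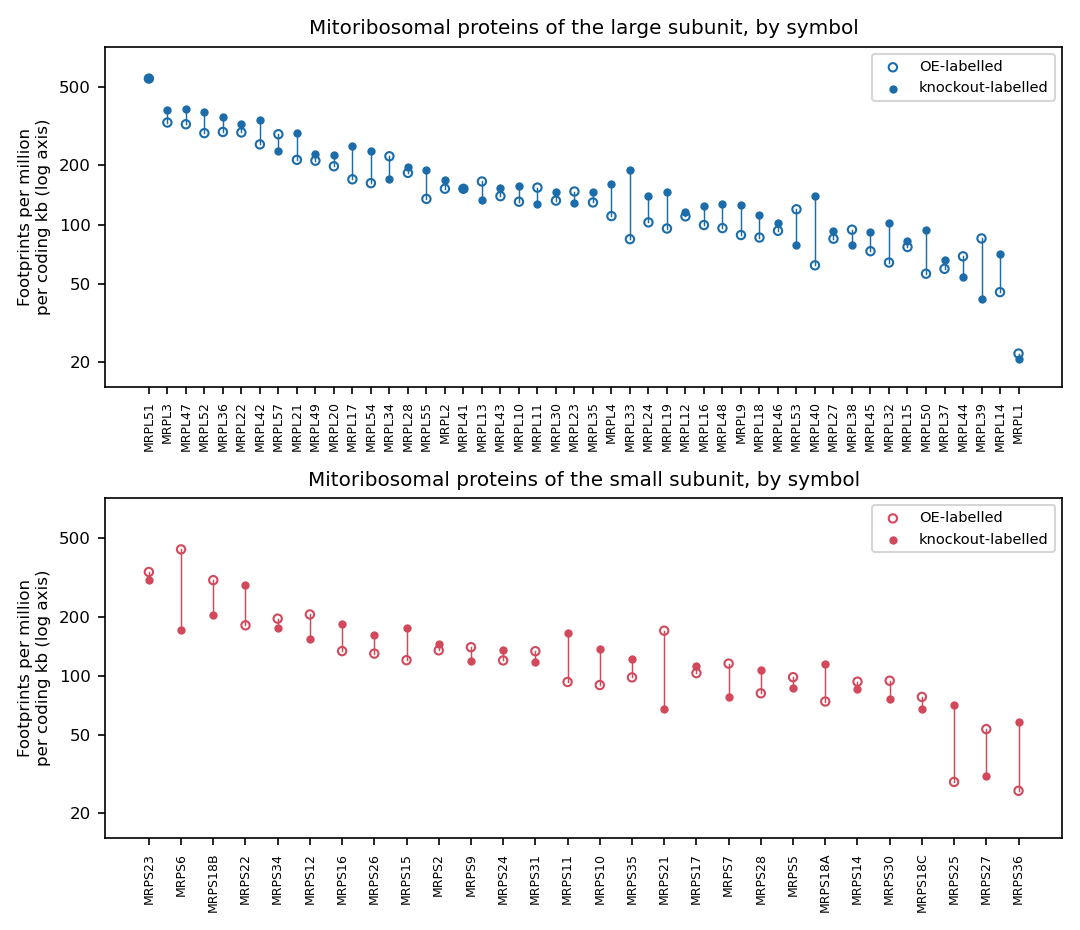
Footprints per 1000000 and per kb of coding sequence (log axis) of each member, sorted within its subunit by the mean of both lines on the log scale, with open circles for the OE-labelled and filled circles for the knockout-labelled library. MRPL51 is highest at 553 and 557 and MRPL1 lowest at 22.1 and 20.8; MRPS6 lies at 439 and 172 and MRPS25 at 28.9 and 71.5.

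Most mitoribosomal proteins are present in a single copy per particle, and their footprint levels varied less over genes than those of all measured genes. Levels between genes are given as footprints per 1000000 of the library and per kb of coding sequence, OE-labelled first. The members' median was 120 and 140, against 38.5 and 39.9 for all measured genes and 1638 and 1953 for the cytosolic ribosomal proteins. The SD of the log2 level over genes was 0.85 and 0.84 in the members. It was 1.93 and 1.95 in all measured genes and 0.88 and 0.95 in the cytosolic proteins. The large subunit stood at a median of 130 and 146 and the small subunit at 120 and 122. MRPL51 (mL51) was highest, with 553 and 557, followed in the large subunit by MRPL47, MRPL3 and MRPL52, and in the small subunit MRPS23 had 337 and 306. MRPL1 (uL1m, of the mobile stalk beside the tRNA exit) was lowest at 22.1 and 20.8, and MRPL14 had 45.4 and 71.2. MRPS6 moved from 439, the highest of the small subunit, to 172, and MRPS25 from 28.9, the lowest of its measured genes, to 71.5, while MRPS27 moved from 53.6 to 30.9. With 1 library per line no level has a spread over replicates, and neighbours in the order cannot be ranked.

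Within a line, the members carried more footprints per RNA than the typical gene. On the log2 scale and after division by library totals, the median of 75 members was 0.75 in both lines, against 0.26 (OE-labelled) and 0.19 (knockout-labelled) for all measured genes. The cytosolic proteins stood at 0.06 and 0.63. The large subunit had 0.75 and 0.79 and the small subunit 0.79 and 0.51. MRPL55 (bL31m) was highest, at 2.16 and 2.21, and the lowest were MRPS16 (bS16m) in the OE-labelled line, at -1.21 and -0.72, and MRPL37 (mL37) in the knockout-labelled line, where it stood at -0.86. MRPS16 overlaps DNAJC9 in the annotation, and MRPS21 moved from 1.996 to 0.297.

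The 2 members on chromosome 21, MRPS6 and MRPL39, lay among genes that were lower as well. All 105 genes of the chromosome measured in RNA had a median mRNA ratio of -0.53, with 49 at least 1.5-fold lower and 1 higher, and 79 had a median footprint ratio of -0.44. The up to 40 measured genes nearest to MRPS6 had medians of -0.62 in mRNA and -0.37 in footprints, and those nearest to MRPL39 -0.47 and -0.42. MRPS6 mRNA (-1.39) was thus lower than its neighbours' median, whereas MRPL39 mRNA (0.08) was not, and MRPL39 footprints (-1.04) were. The part of the chromosome in the ratios of both members was not tested. The 4 members on chromosome 3 (MRPL3, MRPL47, MRPS22 and MRPS25) had mRNA ratios from 0.05 to 0.70, and the neighbours of MRPL3 a median of 0.45. MRPL24 (1.41), MRPS25 (0.70) and MRPL17 (-0.68) had neighbours near 0. Across all 76 members, r between the mRNA ratio and the neighbours' median was 0.36, and 0.25 across the 74 outside chromosome 21, where close members share neighbours.

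**Figure D5:**
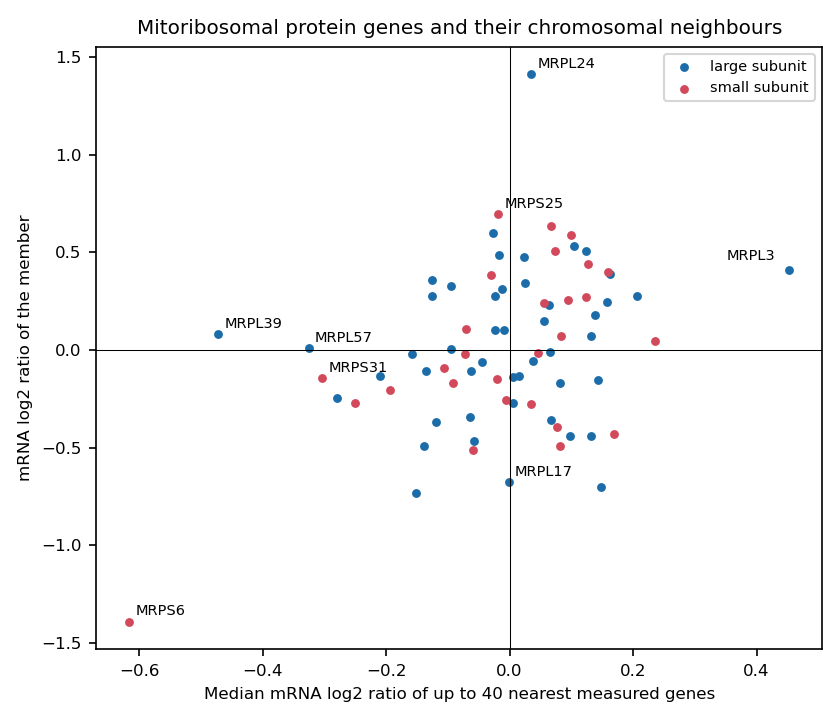
mRNA log2 ratio of each of the 76 members (vertical axis) against the median ratio of the nearest measured genes on the chromosome, up to 20 to each side (horizontal axis). MRPS6 lies at -0.62 and -1.39 and MRPL39 at -0.47 and 0.08, while MRPL24 and MRPL17 lie far from 0 over neighbours close to 0.

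A gene with its start within 1000 bases on the opposite strand, pointing away, was annotated for 20 of 75 members (26.7%) and for 889 of 7252 measured genes (12.3%). MRPS11 and MRPL46 form such a pair with each other on chromosome 15, with starts 34 bases apart in GENCODE. By RefSeq, used for the promoters above, the starts lie further apart, with that of MRPS11 255 bases further into the gene. MRPL46 (mL46) had 178 and 189 RNA counts and 213 and 277 footprints, an mRNA ratio of -0.36 (-0.66 to -0.05), and MRPS11 an mRNA ratio of 0.64 (0.30 to 0.98). The mRNAs of this pair, 1 of each subunit, thus differed in opposite directions, although transcripts on the opposite strand overlap MRPS11. The strand setting of the counts is not given, so reads of a member and of an antisense transcript cannot be told apart for 31 members, and 18 overlap a gene on their own strand. MRPS24 (219 and 352 RNA counts) overlaps, on the same strand, the listed readthrough gene URGCP-MRPS24 (212 and 333). A named pseudogene exists for 33 members, whose median mRNA, footprint and efficiency ratios were 0.10, 0.14 and 0.03, against -0.05, 0.10 and 0.09 for the other 43.

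Mitoribosomal proteins with other names also lay on both sides of 0. The median mRNA, footprint and efficiency ratios of the 6 were 0.02, -0.0075 and -0.05. DAP3 (mS29, the GTP-binding protein of the small subunit) had 423 and 567 RNA counts and 420 and 324 footprints, a footprint ratio of -0.65 (-0.86 to -0.44). CHCHD1 (mS37) had 47 and 107 footprints (0.90, 0.40 to 1.44) on 102 and 146 RNA counts. PTCD3 (mS39, a pentatricopeptide-repeat protein at the mRNA entry) had an mRNA ratio of 0.29 and an efficiency ratio of -0.48, and GADD45GIP1 (mL64) of -0.37 and 0.50. AURKAIP1 (mS38) and ICT1 (mL62, a peptidyl-tRNA hydrolase) had ratios between -0.12 and 0.15 in all 3 measures.

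Factors that work with the mitoribosome showed no common direction in footprints. Among all measured genes, 10.5% were at least 1.5-fold higher and 10.5% lower in mRNA, and 15.0% and 14.1% in footprints. Of 16 mitochondrial translation factors and membrane helpers, 1 was higher and 4 lower in mRNA at 1.5-fold, with a median of -0.07. Of 12 measured in footprints, 0 were higher and 1 lower. The lower mRNAs included MTIF3, an initiation factor (102 and 51 counts, -1.44), RMND1 (128 and 71, -1.29) and OXA1L, the insertase that passes new proteins into the inner membrane (465 and 339, -0.90). OXA1L footprints were 395 and 442, a ratio of -0.11. Of 26 assembly factors, 24 were measured in RNA, with 0 higher and 1 lower (TFB1M, an rRNA dimethyltransferase, -0.88). In footprints 23 were measured, with 3 higher and 3 lower (13.0% each), near the share of all genes. MPV17L2 had the highest footprint ratio of these (23 and 78, 1.46) and FTSJ2, an rRNA methyltransferase, the lowest (229 and 150, -0.89). MPV17L2 lay just above the count minimum and reached it only through its knockout-labelled count.

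The mRNAs that the mitoribosome itself translates had, for 12 of 13, mRNA ratios below 0 after scaling, and most of those measured carried more footprints per RNA in the knockout-labelled line. The 13 mitochondrially encoded mRNAs had a median mRNA ratio of -0.31. The 8 measured in footprints had a median footprint ratio of 0.41 and efficiency ratio of 0.71. In efficiency 7 of 8 were at least 1.5-fold higher, against 13.4% of all measured genes. MT-CO1, the catalytic subunit of cytochrome c oxidase, had 44759 and 48579 RNA counts and 1192 and 2040 footprints, ratios of -0.33 and 0.50. MT-ATP6 was the exception, with 64 and 39 footprints and an efficiency ratio of -0.40 (-0.99 to 0.18). Footprints on the 13 made up 0.0787% of the OE-labelled and 0.109% of the knockout-labelled footprint library. Their RNA made up 1.31% and 1.14% of the RNA libraries. Within a line, the median log2 footprints per RNA of the 8 were -4.06 and -3.46, against 0.26 and 0.19 for all measured genes. How fully these libraries recover footprints of the mitoribosome was not tested, so recovery and loading cannot be told apart here.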

How the data were processed

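The 4 libraries, an RNA and a footprint library of each line, were grouped by their genotype labels. Per the file headers, each deposited file pairs 19192 gene symbols and their transcripts with unnormalized counts. Per the labels' protocols, the size windows were 18 to 34 nt for footprints and 18 to 50 nt for RNA, both linkers held random identifiers (4 and 5 nt), and amplification took 15 cycles. Tools named in the submitters' processing notes are cutadapt 1.10, Bowtie 1.1.2 and HISAT2 2.1.0, with the build GRCh38. How reads were counted, with which strand setting, and whether identifiers were collapsed is not given in the sources used here. Copies from PCR, where counted, would make the intervals too narrow.

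Counts were scaled within each assay by TMM factors (edgeR 4.0.16, R 4.3.3). Log2 ratios have 0.5 added to each count and an exact conditional binomial (Clopper-Pearson) 95% interval, efficiency ratios a Wald interval. No test across genes was run. Named members are the 6 highest and 6 lowest of each ratio by the interval bound nearest to 0, the members of each subunit with the most and fewest footprints per coding kb, those on chromosome 21, and MRPS18A, MRPS18B, MRPS18C, MRPS30 and MRPL12; MRPL53, MRPS16, MRPL46, MRPL55 and MRPS24 were named after their values were seen. Members and lists were chosen with earlier results of these data known. Genes were placed by matching the listed transcripts to GENCODE release 29 (19176 of 19192 found), and promoters are RefSeq's. The ratio and interval steps of mRNA and footprints were tested on simulated counts. These counts held counting error only and were centred on their median ratio, so neither TMM scaling nor the efficiency interval was tested. The alternatives tried were total counts, upper-quartile scaling, size factors of DESeq2 1.42.0, count minimums of 10, 200 or none, 5 added to each count, a 2-fold call, summed counts and other memberships. Scripts ran in Python 3.11.15 with scipy 1.17.1, numpy 2.4.6, matplotlib 3.10.9 and pandas 2.3.3.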

Additional observations from a re-analysis of the deposited data

How the results depend on the processing

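No paired analysis was possible because each line has 1 library per assay, and for the same reason no library could be left out. Across the alternatives, 107 values of group results stayed within the set limits, 31 moved and 1 reversed. For single members 247 values kept direction and side of the fold threshold, 24 no longer reached it, 1 newly reached it and 0 reversed. Part of these tallies was fixed in advance. A ratio between 1.5-fold and 2-fold always fails the 2-fold call, and the levels per whole transcript were always counted as moved. With total counts the members higher and lower in mRNA were 10 and 2 (5 and 4 as reported), their median mRNA ratio was 0.12 and their median efficiency ratio -0.0017, which is the reversal. Upper-quartile scaling gave 3 higher in mRNA and a median efficiency ratio of 0.14. A minimum of 200 gave 1 higher and 2 lower in mRNA with a median of -0.057, 4 and 2 in footprints and 5 and 2 in efficiency; it leaves fewer members measured. Adding 5 to each count gave 3 higher in mRNA. The 2-fold call gave 1 and 1 in mRNA, 3 and 3 in footprints and 3 and 2 in efficiency. The large minus small subunit difference was 0.20 in footprints with a minimum of 10 and 0.20 with none, since MRPS36 then enters, 0.21 from summed counts and 0.21 without the chromosome 21 members, an alternative chosen after seeing the data (0.31 as reported). In mRNA it was 0.17 with a minimum of 200 and 0.18 from summed counts (0.03), and in efficiency 0.045 and 0.0345 (0.15). The mRNA distance to the cytosolic proteins was 0.24 with a minimum of 200. Per kb of whole transcript, the members' footprint level was 59.6 and 65.1, and footprints per RNA in the knockout-labelled line were 0.85 with factors over all 4 libraries. The cause of the moves by other settings was not tested. Depth limits the low members: MRPS18C, with 51 and 75 RNA counts, has an interval from -0.42 to 0.65, which does not leave out a difference of 1.5-fold.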
